A study of Mus musculus with 4 samples.

Results

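Calmodulin and calcineurin carry calcium signals in the cytoplasm, and 8 of their genes were examined for contact between their RNA and IGF2BP3 in the mouse testis. The members were the calmodulin genes Calm2 and Calm3, the calmodulin-dependent kinase gene Camk4, the catalytic calcineurin genes Ppp3ca, Ppp3cb and Ppp3cc, and the regulatory calcineurin genes Ppp3r1 and Ppp3r2. A cluster of reads belonged to a member when its centre lay inside the gene span of GENCODE M21 on the strand of the gene. By this rule the 8 genes, of 55450 annotated, held 381 of 337234 clusters in replicate 1 and 226 of 216354 in replicate 2. IGF2BP3 contacts shared by both replicates lay in the 3′UTRs of 5 of the 8 genes, which were chosen with earlier results of these data known. Of the 12312 protein-coding genes with clusters in both replicates, 16.6% had such contacts in any region. Among those with at least 23 clusters over both replicates, as many as the member with the fewest, the share was 24.5%. A test over both replicates at once counted overlapping cluster pairs in all regions, not genes. It called 17.9% of the members' pairs beside 19.6% of all pairs.

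Calcium-bound calmodulin is a small protein that switches on its partners, among them the calmodulin-dependent kinases and the phosphatase calcineurin. Calcineurin joins a catalytic subunit, which binds calmodulin, to a regulatory subunit, which binds calcium itself. In the male germ line the catalytic subunit encoded by Ppp3cc and the regulatory subunit encoded by Ppp3r2 form a calcineurin that sperm need for a flexible midpiece and for motility, while Ppp3ca, Ppp3cb and Ppp3r1 are expressed in many tissues.

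The RNA came from whole testes of wild-type C57BL/6 mice that were 8 weeks old, so germ cells and somatic cells were both present. In eCLIP, RNA is crosslinked to protein by ultraviolet light, and the fragments recovered with an antibody, here against IGF2BP3, are sequenced. The 4 libraries were 2 IGF2BP3 IP libraries and 2 SMInput libraries made from the same lysates without the antibody, 1 of each kind per replicate. The paper calls the replicates biological, but the labels do not say which animals gave which replicate. Spread between animals and technical spread therefore cannot be told apart here. The authors compared IP with SMInput reads in every cluster, and their log2(fold change) and −log10(P value) are the values used below. A cluster was called significant when both were at least 2, that is, an IP share at least 4 times the SMInput share with a P value of at most 0.01. These P values compare the reads of 1 IP with the reads of 1 SMInput library and say nothing of the spread between animals.

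The reads behind each cluster were recovered from the listed values, which also gave the depth of each library. Replicate 1 had 5133438 usable IP reads and 8706391 usable SMInput reads. Replicate 2 had 4637612 and 16696122, so its background was sequenced more deeply. Over 1 SMInput read, a call needed 7 IP reads or more in replicate 1 and 4 or more in replicate 2. Intervals given with log2 values are exact 95% binomial intervals of the recovered reads and cover counting error only.

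The SMInput libraries held the transcripts of a testis. Their deepest cluster in Prm1, a spermatid gene, had 358 reads in replicate 1 and 639 in replicate 2. Somatic transcripts were present as well, with up to 218 and 393 reads in a cluster of the Sertoli cell gene Clu and up to 319 and 521 in one of the Leydig cell gene Insl3. The Sertoli cell gene Wt1 reached 16 and 50 reads and Amh 1 and 2. Of the other Leydig cell genes, Star reached 3 and 8 reads, Cyp17a1 16 and 22 and Hsd3b1 12 and 21. Of the blood genes, Hbb-bs had 2 clusters in replicate 1 and 0 in replicate 2, Hba-a1 had 1 and 0, and Ptprc reached 1 and 2 SMInput reads in its deepest cluster. Which testicular cells gave the reads of the members cannot be told from whole tissue, and fewer cells of a type cannot be told apart from less RNA per cell.

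Of the clusters of the 8 genes, 23 of 381 were significant in replicate 1, or 6.04%, beside 4.92% of all clusters. In replicate 2 it was 35 of 226, or 15.5%, beside 13.2%. The median log2(fold change) of their clusters was 1.5 in replicate 1 and 1.64 in replicate 2, against 1.5 and 1.53 over all clusters. Taken as whole genes, the members therefore lay close to the background.

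In their 3′UTRs the share of calls was larger than over all 3′UTR clusters before depth was considered, and the difference was not tested. In replicate 1, 16 of 54 3′UTR clusters of the members were significant, or 29.6%, beside 19.4% of all 3′UTR clusters. In replicate 2, 24 of 47 were significant, or 51.1%, beside 34.4%. The members' 3′UTR clusters were also deeper, with a median of 21 IP reads in replicate 1 and 24 in replicate 2 against 8 and 8 over all 3′UTR clusters. When only clusters with at least 20 IP and SMInput reads together were kept, a limit chosen after the data were seen, the shares were 33.3% against 33.8% in replicate 1 and 58.8% against 37.7% in replicate 2. Past this minimum, which does not match the depth of the compared clusters, the members' share was the larger in replicate 2 alone. Clusters listed at a −log10(P value) of 0 had no recovered reads and were left out whatever their depth. Every 3′UTR cluster of the members had recovered reads, so the omission touched the share over all clusters alone and could only raise it.

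In coding sequence (CDS) the members had 3 significant clusters of 59 in replicate 1 and 4 of 58 in replicate 2, shares of 5.08% and 6.90% beside 5.27% and 7.95% of all CDS clusters. Introns had 4 of 257 and 7 of 112, or 1.56% and 6.25%, beside 1.94% and 10.7% of all intron clusters. The 9 clusters in 5′UTRs of each replicate held 0, beside 5.08% and 8.59% of all 5′UTR clusters. The 3′UTRs thus held 16 of the 23 significant clusters in replicate 1 and 24 of the 35 in replicate 2, that is 69.6% and 68.6%. Over all genes the 3′UTRs held 43.2% and 36.7% of the significant clusters.

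**Figure D1:**
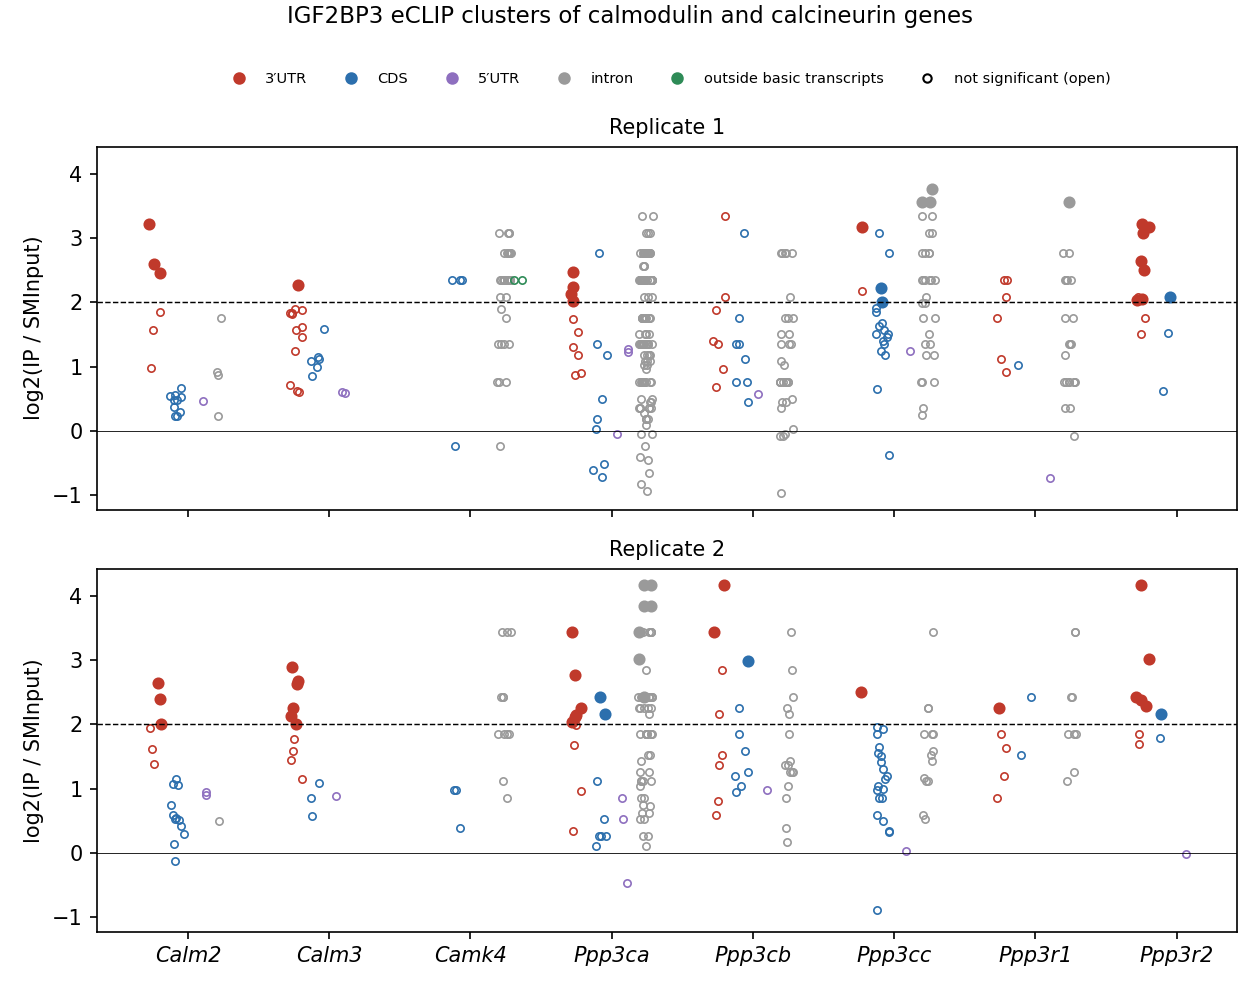
Each point is 1 cluster of the gene named on the x axis, placed by the authors' log2 ratio of IP to SMInput on the y axis and coloured by its region, with replicate 1 above and replicate 2 below. Filled points are significant, open points are not, and the dashed line marks a log2(fold change) of 2; 16 of 23 filled points in replicate 1 and 24 of 35 in replicate 2 lie in 3′UTRs.

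Overlap between the replicates was stricter. A site counted as shared where significant clusters of both replicates overlapped by 1 base or more on the same strand. The members had 8 such sites in 5 of the 8 genes, all 8 in 3′UTRs. Among 12312 protein-coding genes with clusters in both replicates, 2048 had such a site, or 16.6%. Genes with many clusters have more chances of one, and among the 6548 genes with at least 23 clusters over both replicates, as many as the member with the fewest, the share was 24.5%. Calm2, Ppp3ca and Ppp3r2 had 2 shared sites each, Calm3 and Ppp3cc had 1 each, and Camk4, Ppp3cb and Ppp3r1 had 0. These counts depend on the rule: a test over both replicates at once gave 16 sites in 7 genes, with 1 each in Ppp3cb and Ppp3r1, and thresholds of 3 left 1 site, in Ppp3r2. The share of all genes was not computed under either rule, so these gene counts cannot be set beside a background. The test over both replicates called 19 of 106 overlapping cluster pairs of the members, or 17.9%, beside 19.6% of all pairs. By pairs over all regions the members were thus not above the background, and 1 cluster can stand in more than 1 pair.

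The significant intron clusters were not shared. None of the 4 of replicate 1 and none of the 7 of replicate 2 met any cluster of the other replicate, as was so for 85.4% and 89.6% of all significant intron clusters. Of the 16 significant 3′UTR clusters of replicate 1, 8 overlapped a significant cluster of replicate 2, 5 overlapped another cluster and 3 overlapped none. Over all significant 3′UTR clusters of replicate 1 these shares were 45.7%, 16.2% and 38.1%. Of the 24 in replicate 2, 9 overlapped a significant cluster of replicate 1, 9 overlapped another cluster and 6 overlapped none, beside 30.3%, 28.3% and 41.4% of all. With these few clusters no difference from the background is claimed. In 8 of the 9 that met another cluster, that cluster itself passed the P value threshold and fell short of the fold threshold alone.

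Among the calmodulin genes, Calm2 (chr17:87433412-87446935, minus strand, mm10) had 21 clusters in each replicate, 3 of them significant in each. All 6 lay in its 3′UTR, which is 615 bases long. The stronger shared site, at chr17:87433443-87433545 in the last exon, exon 6, had 50 IP and 14 SMInput reads in replicate 1 and 67 and 46 in replicate 2. Its log2(fold change) was 2.60 (1.72 to 3.57) with a −log10(P value) of 10.6 in replicate 1, and 2.39 (1.83 to 2.96) with 20.9 in replicate 2. The other site, at chr17:87433637-87433717, had 39 IP and 12 SMInput reads in replicate 1 and 38 and 34 in replicate 2, giving 2.46 (1.5 to 3.53) and 2.01 (1.30 to 2.72). At both sites the intervals of the replicates overlapped widely.

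The coding exons of Calm2 served as an internal comparison, because they were deeper than the 3′UTR in the SMInput. Their 10 clusters in replicate 1 and 12 in replicate 2 had between 38 and 68 and between 44 and 123 SMInput reads where reads were recovered, and 0 were significant. Summed over clusters with recovered reads, the 3′UTR of Calm2 had 366 IP and 183 SMInput reads over 383 bases in replicate 1, a log2 ratio of 1.76 (1.5 to 2.03), and its CDS had 383 and 480 reads over 460 bases, a ratio of 0.44 (0.24 to 0.63). In replicate 2 the 3′UTR had 408 and 416 reads over 432 bases, or 1.82 (1.62 to 2.02), and the CDS 410 and 939 over 385 bases, or 0.65 (0.48 to 0.82). The summed ratio of the called 3′UTR clusters was thus above that of the called CDS clusters in both replicates, with no overlap of the intervals. Some reads reach into neighbouring clusters and may be counted in each, so intervals of sums are narrower than the reads allow. Sums also cover only called clusters, where IP reads had piled up, and leave out clusters listed at a −log10(P value) of 0, so they lean upward and do not describe a region as a whole.

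Calm3 (chr7:16915379-16924114, minus strand) had 1 significant cluster of 21 in replicate 1 and 6 of 14 in replicate 2. The shared site lay at chr7:16915856-16915894, in exon 6, with 40 IP and 14 SMInput reads in replicate 1 and 40 and 30 in replicate 2. Its log2(fold change) was 2.28 (1.37 to 3.27) and 2.26 (1.54 to 3), with −log10(P value) of 7.38 and 11.7. At this site the folds of the replicates were nearly the same. The sums over its 3′UTR clusters differed, at 1.35 (1.19 to 1.51) in replicate 1 and 1.83 (1.68 to 1.98) in replicate 2. The deepest significant cluster of replicate 2, chr7:16915442-16915523, had 112 IP and 65 SMInput reads and a log2(fold change) of 2.63 (2.18 to 3.10), and the cluster of replicate 1 over it, with 81 and 39 reads, was at 1.82 (1.25 to 2.41) with a −log10(P value) of 11.

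Within the 3′UTRs of both calmodulin genes the summed ratio was higher beyond the midpoint than before it. This split at the midpoint of the 3′UTR was chosen after the values were seen. The direction was not particular to the calmodulin genes. It was the same in Ppp3r1 in both replicates and in Ppp3cc in replicate 1, but there the intervals of the sides overlapped. Ppp3cc had 1 cluster on each side in replicate 1, and in replicate 2 its only 3′UTR cluster lay beyond the midpoint. In Calm2, clusters up to the midpoint had a summed log2 ratio of 1.58 (1.29 to 1.87) in replicate 1 and 1.64 (1.40 to 1.87) in replicate 2, and those beyond it 2.54 (1.89 to 3.23) and 2.31 (1.92 to 2.71). The largest single value of Calm2 in replicate 1 nevertheless lay before the midpoint, in a significant cluster at chr17:87433745-87433758 with 22 IP and 4 SMInput reads and a log2(fold change) of 3.22. In Calm3, whose 3′UTR has 1569 bases, the values up to the midpoint were 1.12 (0.92 to 1.31) and 1.47 (1.27 to 1.66), and those beyond it 1.82 (1.53 to 2.11) and 2.41 (2.16 to 2.66). All 6 significant Calm3 clusters of replicate 2, and the 1 of replicate 1, lay beyond the midpoint. The CDS of Calm3 stood at 1.09 (0.78 to 1.40) in replicate 1, where its interval met that of the whole 3′UTR at 1.35 (1.19 to 1.51), and at 0.83 (0.42 to 1.23) in replicate 2, where the 3′UTR was at 1.83 (1.68 to 1.98).

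**Figure D2:**
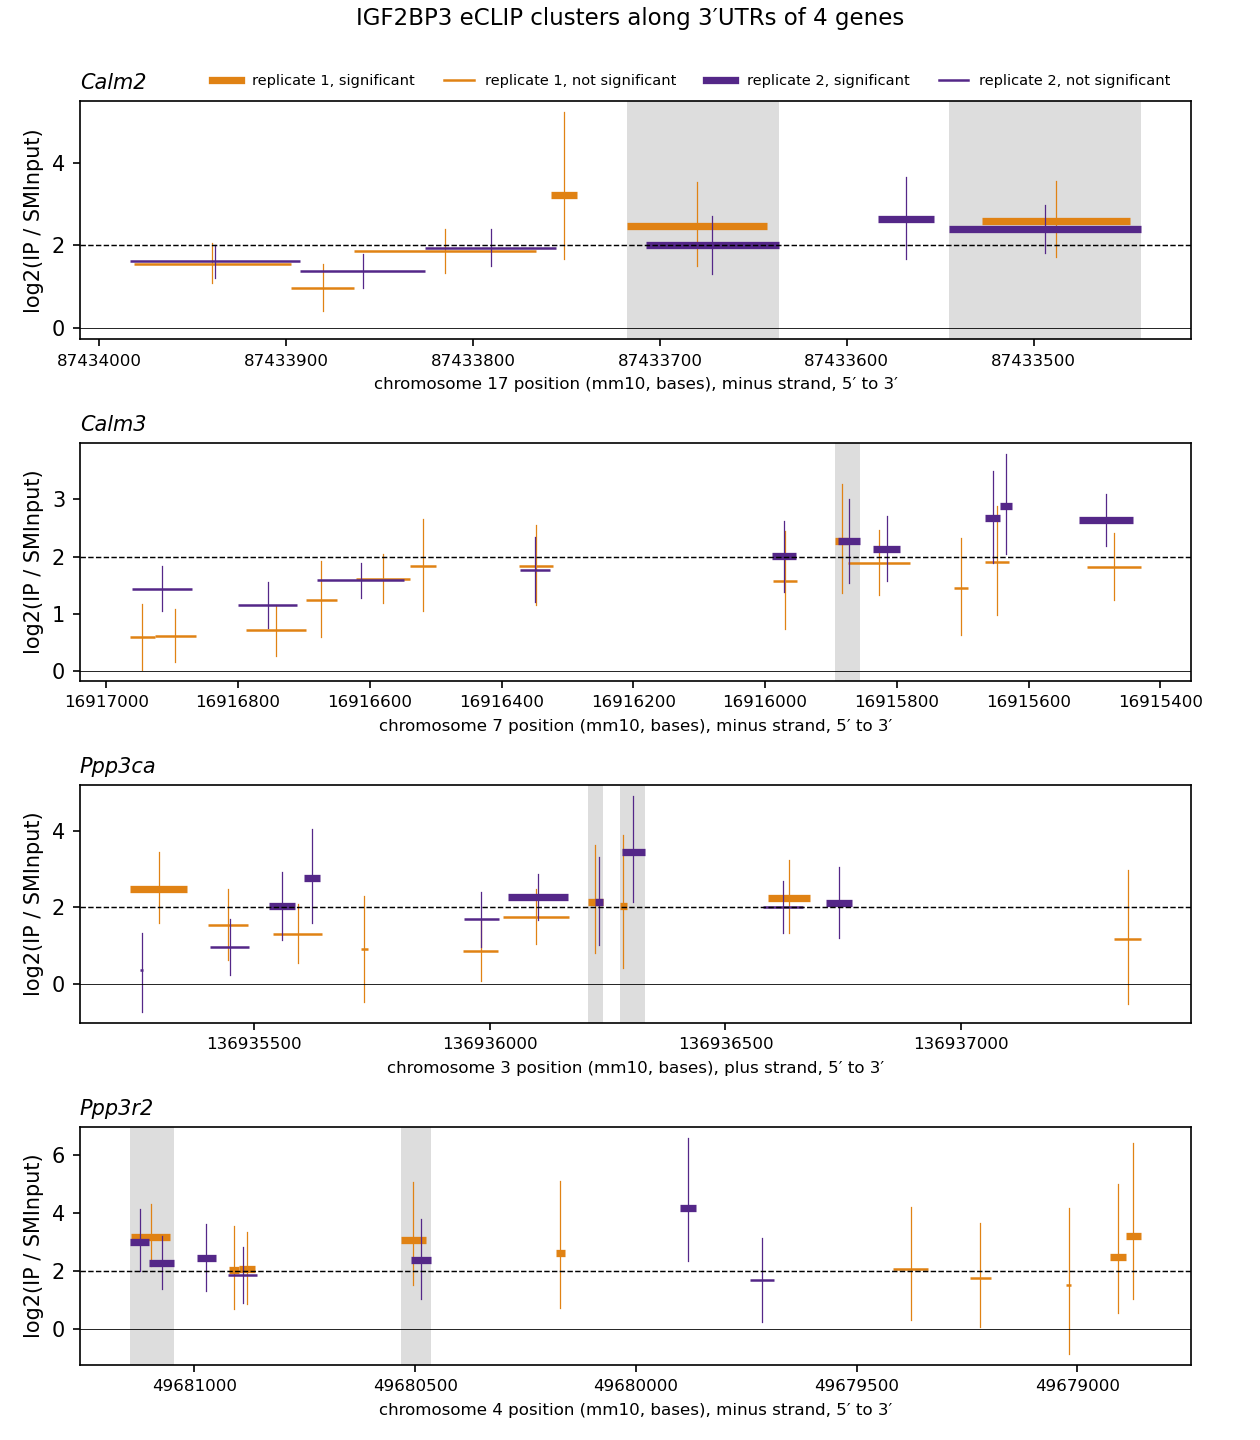
Clusters of 4 genes in their 3′UTRs, drawn as bars along the mm10 position on the x axis and from 5′ to 3′ of the transcript, at the authors' log2 ratio of IP to SMInput on the y axis, with replicate 1 in orange and replicate 2 in purple. Thick bars are significant, vertical lines are exact 95% binomial intervals of the recovered reads, the dashed line marks 2 and grey bands mark the sites significant in both replicates, 2 in Calm2, 1 in Calm3, 2 in Ppp3ca and 2 in Ppp3r2.

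Camk4 encodes the calcium/calmodulin-dependent kinase IV, which is made in spermatids and can phosphorylate the germ cell transcription factor CREM. Its span on chromosome 18 held 42 clusters in replicate 1 and 15 in replicate 2, and 0 of each were significant. The largest log2(fold change) of replicate 1, 3.08 (−0.08 to 8.65), was shared by 4 intron clusters with 5 IP reads over 1 SMInput read. In replicate 2 it was 3.43 (−0.21 to 9.15), in 3 intron clusters with 3 IP reads over 1. With 1 SMInput read these counts lie under the 7 and 4 IP reads that a call takes, which restates that these clusters were not called. Summed over its intron clusters with recovered reads, Camk4 had 132 IP and 52 SMInput reads in replicate 1 and 37 and 33 in replicate 2, log2 ratios of 2.11 (1.63 to 2.60) and 2.01 (1.30 to 2.74). These sums cover 1608 and 490 bases of a gene of 256298, chosen by their IP reads, and do not show that its introns were enriched. Its CDS had 3 clusters in replicate 2, each with 11 SMInput reads, and 4 in replicate 1, of which 3 had 3 IP reads over 1 and the other was listed at 0 with a log2(fold change) of −0.24. No ratio of the CDS is drawn from so few reads, and 0 clusters of either replicate lay in the 3′UTR of its basic transcript. The other 2 clusters of replicate 1, at chr18:33186950-33186957 and chr18:33186958-33186984, lay in the gene span but outside that transcript. Each had 3 IP reads over 1.

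Of the catalytic calcineurin subunits, Ppp3ca (chr3:136670124-136937727, plus strand) encodes the alpha form, abundant in brain and found in many tissues. It had 4 significant clusters of 148 in replicate 1 and 15 of 81 in replicate 2. All 4 of replicate 1 and 6 of the 15 lay in the 3′UTR. Another 7 of the 15 were intron clusters and 2 were CDS clusters, with between 4 and 10 IP reads each. Both shared sites fell in the longer of the annotated 3′UTRs, with centres 999 and 1059 bases past the stop codon in replicate 1 and 1006 and 1080 in replicate 2. The first, at chr3:136936209-136936239, had 18 IP and 7 SMInput reads in replicate 1 and 16 and 13 in replicate 2, with log2(fold change) of 2.12 (0.80 to 3.63) and 2.15 (1 to 3.32). The second, at chr3:136936276-136936328, had 12 and 5 reads, then 21 and 7, with 2.03 (0.42 to 3.88) and 3.43 (2.15 to 4.91). In replicate 1 its −log10(P value) was 2.04, just past the threshold.

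Just after the stop codon of Ppp3ca the replicates had different clusters. The cluster of replicate 1 at chr3:136935239-136935358 had 46 IP and 14 SMInput reads, a log2(fold change) of 2.48 (1.59 to 3.46). The cluster of replicate 2 inside it, only 6 bases wide, had 12 and 34 reads and a value of 0.35 (−0.74 to 1.33). These intervals do not meet, but replicate 2 has no value for the rest of the stretch, so the clusters do not measure the same bases. Summed over its 3′UTR clusters, which cover 729 bases in replicate 1 and 583 in replicate 2, Ppp3ca was at 1.65 (1.36 to 1.94) and 1.86 (1.62 to 2.11).

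Ppp3cb, the beta catalytic subunit (chr14:20499364-20546573, minus strand), had 0 significant clusters of 50 in replicate 1 and 3 of 33 in replicate 2. In replicate 2 the significant cluster with the most IP reads was in the CDS, in exon 4 at chr14:20528184-20528272, with 11 IP and 5 SMInput reads and a log2(fold change) of 2.99 (1.34 to 4.86); no cluster of replicate 1 overlapped it. The other 2 lay in the 3′UTR, at chr14:20507767-20507776 with 5 IP reads over 1 and a log2(fold change) of 4.17, and at chr14:20507829-20507850 with 6 over 2 and 3.43. The largest value of replicate 1 was 3.35 (0.30 to 8.87) at chr14:20500265-20500306 in the 3′UTR, from 6 IP reads over 1. The 3′UTR and the CDS of Ppp3cb did not separate, with log2 ratios of 1.31 (0.77 to 1.86) and 1.2 (0.60 to 1.81) in replicate 1 and 1.42 (0.87 to 1.96) and 1.52 (0.97 to 2.05) in replicate 2.

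Ppp3cc, the catalytic subunit of the sperm form (chr14:70217865-70289471, minus strand), had 6 significant clusters of 54 in replicate 1 and 1 of 36 in replicate 2. The shared site took up 96 of the 219 bases of its short 3′UTR, in exon 15 at chr14:70217910-70218005. It had 16 IP and 3 SMInput reads in replicate 1 and 19 and 12 in replicate 2, with log2(fold change) of 3.18 (1.37 to 5.60) and 2.51 (1.39 to 3.69) and −log10(P value) of 4.46 and 6.52. The CDS of Ppp3cc had 18 clusters in replicate 1 and 20 in replicate 2, and the 17 and 19 of them with recovered reads had summed log2 ratios of 1.59 (1.32 to 1.88) and 1.30 (1.07 to 1.53). The 2 significant CDS clusters of the gene were both in replicate 1. The intervals of its 3′UTR sums, 2.76 (1.43 to 4.34) and 2.51 (1.39 to 3.69), met those of the CDS in both replicates. The 3 significant intron clusters of replicate 1 each had 7 or 8 IP reads over 1 SMInput read.

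Among the regulatory subunits, Ppp3r1 (chr11:17159263-17200375, plus strand), the widely expressed form, had 1 significant cluster of 32 in replicate 1 and 1 of 16 in replicate 2, in different places. That of replicate 1 was an intron cluster at chr11:17189633-17189701, with 7 IP reads over 1 and a log2(fold change) of 3.57 (0.61 to 9.06). That of replicate 2 was in the 3′UTR, in exon 6 at chr11:17199816-17199866, with 8 and 6 reads and a value of 2.26 (0.55 to 4.07). The cluster of replicate 1 over the latter had 9 and 3 reads and a log2(fold change) of 2.35 (0.34 to 4.87), with a −log10(P value) of 1.90, under the threshold. The span of Wdr92 on the same strand also holds 17 of the 32 clusters in replicate 1 and 9 of the 16 in replicate 2, both significant ones among them, and the reads cannot be told apart between the genes.

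Ppp3r2, the regulatory subunit of the sperm form (chr4:49678747-49682024, minus strand), had 8 significant clusters of 13 in replicate 1 and 6 of 10 in replicate 2, that is 61.5% and 60%. These were the largest shares among the 8 genes, though shares of whole genes also differ in their mix of regions, and only Ppp3r2 and Calm3 had 0 intron clusters. In its 3′UTR 7 of 10 clusters were significant in replicate 1 and 5 of 7 in replicate 2, and in replicate 2 the only 3′UTR cluster of Ppp3cc was significant as well. It lies on the same strand as Grin3a and within its span of 184134 bases, but Grin3a had 0 clusters of its own in both replicates. The stronger shared site lay just past the stop codon, at chr4:49681046-49681145. Its strongest clusters had 53 IP and 10 SMInput reads in replicate 1 and 27 and 12 in replicate 2, with log2(fold change) of 3.17 (2.18 to 4.31) and 3.02 (1.99 to 4.13) and −log10(P value) of 13.5 and 11.6. The other, at chr4:49680464-49680532, had 20 and 4 reads, then 13 and 9, with 3.08 (1.51 to 5.09) and 2.38 (1.04 to 3.78).

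Summed over its 3′UTR, Ppp3r2 had 169 IP and 50 SMInput reads in replicate 1 and 129 and 86 in replicate 2, log2 ratios of 2.52 (2.06 to 3) and 2.43 (2.03 to 2.84). Its CDS was at 1.45 (0.93 to 1.98) in replicate 1 and 1.95 (1.31 to 2.59) in replicate 2. The intervals of both regions lay close together in replicate 1 and overlapped in replicate 2, so the regions are not set apart. Unlike in the calmodulin genes and Ppp3r1, the sides of the midpoint of the Ppp3r2 3′UTR did not differ in a common direction. The values were 2.66 (2.1 to 3.26) before and 2.20 (1.37 to 3.09) after it in replicate 1. In replicate 2 they were 2.37 (1.93 to 2.82) and 2.73 (1.70 to 3.83), and the intervals overlapped in both replicates. In its 3′UTR, 3 significant clusters of replicate 1 and 2 of replicate 2 met no cluster of the other replicate. Of these, the cluster of replicate 2 at chr4:49679865-49679900, had 15 IP reads over 3 and the largest value of the gene, 4.17 (2.35 to 6.6).

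In the order of the 3′UTR ratio in replicate 2, Ppp3cc was at 2.51 (1.39 to 3.69), Ppp3r2 at 2.43, Ppp3ca at 1.86, Calm3 at 1.83, Calm2 at 1.82, Ppp3cb at 1.42 and Ppp3r1 at 1.37 (0.73 to 2.00). In replicate 1 the same genes stood at 2.76 (1.43 to 4.34), 2.52, 1.65, 1.35, 1.76, 1.31 and 1.63 (0.95 to 2.34). Both genes of the sperm calcineurin came first in each replicate, but Ppp3cc rested on 2 clusters in replicate 1 and 1 in replicate 2, and its interval met all others. The lower end for Ppp3r2 and the upper end for Calm2 were nearly level, at 2.06 and 2.03 in replicate 1 and 2.03 and 2.02 in replicate 2. The interval of Ppp3r2 also lay above that of Calm3, with upper ends of 1.51 and 1.98, and that of Ppp3cb, with 1.86 and 1.96. It met that of Ppp3r1 in replicate 1 and that of Ppp3ca in replicate 2. Intervals of sums are narrower than the reads allow, and the sums cover called clusters only. The order is therefore a description, and no difference between genes is drawn from it.

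Short sequences from the shared sites are printed to show what lies under them, 1 per gene, from the mm10 genome on the strand of the transcript. Each is the stretch that significant clusters of both replicates cover, or its middle 30 bases where it is longer, and capitals mark a match to the motif GAACA, to the motif AAACC, to the motif GGACT or to the motif CATCA.
Calm2, chr17:87433473-87433502, minus strand: ttaaagaAAACCtgctcatggcacaacttg
Calm3, chr7:16915874-16915889, minus strand: atgggccgccgcgcag
Ppp3ca, chr3:136936223-136936239, plus strand: catgttttttaaggaaa
Ppp3cc, chr14:70217948-70217977, minus strand: ggtgcatttgtaattcagtcgcatttattc
Ppp3r2, chr4:49681084-49681113, minus strand: gtatgtgggagaagacaacagttctcatgt

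In windows of 100 bases around the cluster centres, read on the transcript strand alone, AAACC occurred at the stronger Calm2 site and GGACT at the other in both replicates. GAACA occurred at the Ppp3cc site, and GGACT at the second Ppp3ca site, in both replicates. The first Ppp3ca site had GGACT in the window of replicate 2 only, and the sites of Calm3 and Ppp3r2 had none of these letters. Such matches are frequent. GAACA was found in 8.42% and 7.81% of the windows of all 3′UTR clusters in replicates 1 and 2, AAACC in 8.36% and 7.64%, GGACT in 9.40% and 9.24%, and CATCA in 8.64% and 8.10%. Among the members' significant 3′UTR clusters GAACA was in 3 of 16 and 3 of 24 windows, AAACC in 1 and 3, GGACT in 2 and 4, and CATCA in 0 and 2. Over all significant 3′UTR clusters the shares were 8.30% and 7.76% for GAACA and 8.72% and 8.45% for AAACC. For GGACT they were 10.4% and 9.78%, and for CATCA 9.41% and 8.08%.

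Other genes of calcium, calmodulin and calcineurin signalling were counted by whether they had a site significant in both replicates. The calmodulin-dependent kinases outside the members had 0 such genes of 16, 11 of them with clusters in both replicates, with a significant cluster in 3 genes in replicate 1 and 3 in replicate 2, of which only 1 gene was in both. Regulators, anchors and targets of calcineurin had 6 of 20, 16 of them with clusters in both, CREM and CREB factors 1 of 5, all 5 with clusters in both, and other calmodulin-binding proteins and calcium handling 7 of 26, 21 of them with clusters in both. Over all protein-coding genes with clusters in both replicates the share was 16.6%, and 24.5% of those with at least 23 clusters. The 5 genes named here are those of these groups with the largest log2(fold change) in the weaker replicate. Pde1c, a phosphodiesterase that calmodulin activates, led with 5.04 in replicate 1 and 4.43 in replicate 2, in its 3′UTR. Nfatc3, a transcription factor that calcineurin dephosphorylates, had 3.72 and 3.94 in its CDS. Camta1, a calmodulin-binding transcription activator, had 3.41 and 3.74 in its 3′UTR. Crem, the transcription factor that round spermatids need, had 3.32 and 3.46 in its CDS. Crtc2, a CREB coactivator that calcineurin dephosphorylates, had 4.46 and 3.17 in its 3′UTR, level with Strn in the weaker replicate.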

How the data were processed

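IGF2BP3 eCLIP-seq of testes was analysed in 2 replicates of 1 IP and 1 SMInput library. The authors trimmed adapters (cutadapt), took out ribosomal RNA reads (Bowtie2), aligned to mm10 (STAR), collapsed duplicates and called clusters with Clipper. The sample labels give no versions, but the paper's methods list them. For each cluster the deposited −log10 numbers give the authors' P value from a chi-square or Fisher's exact test of IP against SMInput reads in that replicate (listed between 0 and 400). The deposited log2 numbers give the authors' fold change between IP and SMInput after scaling to library size.

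Reads were recovered as the whole numbers that return both listed values, by Fisher's exact test where a number was below 5 and a Yates-corrected chi-square test otherwise. Of 301288 clusters listed between 0 and 400 in replicate 1, 5 had no solution and 65 had several; of 199766 in replicate 2, 9 had none and 1 had several. Clusters at 0 or 400 were not solved. The recovery was tested on simulated reads. Regions came from basic GENCODE M21 transcripts, with 3′UTRs given priority. Named were all members, their shared sites (or, lacking these, the significant cluster with most IP reads, or else the largest fold) and up to 6 genes of the pathway lists with the largest fold in the weaker replicate, of which 1 is not reported here. The members and lists were chosen with earlier results of these data known. Python 3.11.15, SciPy 1.17.1 and pysam 0.24.0 were used. Alternatives covered thresholds, read minimum, overlap, gene assignment, annotation, each replicate alone and a replicate block.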

Additional observations from a re-analysis of the deposited data

How the results depend on the processing

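The 8 shared sites and the 5 genes that held them rest on the thresholds. With both thresholds at 3, 1 site in 1 gene was left, in Ppp3r2, and the significant clusters fell to 5 in replicate 1 and 4 in replicate 2. Lowering the fold threshold to a log2 of 1 gave 48 and 57 significant clusters and 25 shared sites, in 5 genes. Asking for 1 replicate alone gave 21 to 33 sites. With the replicate number as a replicate block, a Mantel-Haenszel ratio over both pairs (log2 of at least 2, adjusted P of at most 0.01 over 69194 overlapping pairs) gave 16 sites in 7 genes, among them all 8 shared sites, with 1 site each in Ppp3cb and Ppp3r1; Camk4 had 0. It called 17.9% of the members' pairs beside 19.6% of all pairs. Assigning clusters to the nearest transcription start site left 13 significant clusters in replicate 1. With at least 10 reads per cluster, and without clusters listed at a −log10(P value) of 0, the median log2(fold change) of the members was 1.33 in replicate 1 and 1.2 in replicate 2. Beyond the rules themselves, the causes were not tested. Of 33 alternatives, 20 left the result within 1.5 times, or for medians and shares within their spread, and 13 moved it further. This tally covers the members' own values and not their standing beside the background, which did change. With at least 20 reads, and without clusters listed at a −log10(P value) of 0, the 3′UTR shares of replicate 1 went from 29.6% beside 19.4% to 33.3% beside 33.8%. Leaving those clusters out could only raise the share over all clusters. In the block, which counts overlapping pairs, the members' share was under that of all pairs. The genes of the block and of the looser threshold, and the minimum of 20 reads, were added after the data were seen. The part of depth in the lack of shared sites in Camk4, Ppp3cb and Ppp3r1 was not tested.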
